A study of Mus musculus with 6 samples.

Results

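Progesterone is made from cholesterol by a short chain of proteins, and this account follows 8 mouse genes in and around it. Star, Tspo, Cyp11a1, Fdx1, Fdxr and Hsd3b1 were listed for that chain, Akr1c18 for progesterone breakdown, and Por encodes a reductase of other P450 enzymes. They were taken by symbol from the count files, each symbol having 1 identifier, and make up 8 of the 55487 genes listed. All 8 were counted in every library and passed the low-count filter, as 15000 genes did. RNA sequencing covered 6 libraries, whose titles give ovarian granulosa cells of the mouse, all of WT genotype, with 3 exposed to cetylpyridinium chloride (CPC, a quaternary ammonium antiseptic) and 3 controls given PBS, a buffered saline. The stated aim was to learn what CPC exposure does to ovarian health. The sources used here do not give the dose, the exposure time, the strain, the age, or whether CPC was applied to animals or to cultures. Other labels of the same records contradict the titles: SKOV3, an ovarian cancer line of human origin, appears as the source, transfected with GATA4 or vector, together with the human build hg19. The files hold mouse gene identifiers located on GRCm38.p6.

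Granulosa cells surround the oocyte, and after ovulation they become luteal cells, the main ovarian source of progesterone. In the standard scheme, STAR moves cholesterol into mitochondria, where CYP11A1 cleaves its side chain to give pregnenolone with electrons passed from FDXR to FDX1, and 3β-hydroxysteroid dehydrogenase turns pregnenolone into progesterone. In rodents AKR1C18 (20α-hydroxysteroid dehydrogenase) then inactivates progesterone, most of all when the corpus luteum regresses.

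Libraries held 22535261, 19837674 and 20840274 counts in CPC 1 to 3, and 19079345, 23157541 and 22297940 counts in control 1 to 3. Levels are counts scaled to library size by TMM, as CPM. Genes were called at 0.05 by the quasi-likelihood test of edgeR, with p-values adjusted by Benjamini-Hochberg over 15000 genes. The libraries of equal number in the 2 groups deviated together. Where a block on the replicate number changes the call of a gene whose adjusted p is printed, the blocked adjusted p is given too. Counts of list and marker genes called are those without the block unless the block is named. Whether libraries of 1 group are separate animals or cultures is not stated, and the p-values then describe only how these libraries spread, which may be technical. In these bulk samples, fewer cells of a type and less RNA per cell cannot be told apart.

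The stretches upstream of 3 of these genes are shown because 2 of them, Hsd3b1 and Akr1c18, had the largest fold decreases of the 8 and Fdx1 carries the electrons for the first enzyme. They are RefSeq sequences on GRCm38.p6, minus strand, read 5′ to 3′ up to the RefSeq transcript start, or up to the gene as the files place it for Akr1c18. Capitals mark matches to any of 5 motifs searched on both strands.
Hsd3b1 (chr3:98859795-98860044): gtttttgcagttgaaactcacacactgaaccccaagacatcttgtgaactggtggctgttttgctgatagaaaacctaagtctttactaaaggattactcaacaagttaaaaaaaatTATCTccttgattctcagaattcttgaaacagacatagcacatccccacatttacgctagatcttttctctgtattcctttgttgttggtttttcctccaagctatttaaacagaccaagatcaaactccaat
Akr1c18 (chr13:4150655-4150896): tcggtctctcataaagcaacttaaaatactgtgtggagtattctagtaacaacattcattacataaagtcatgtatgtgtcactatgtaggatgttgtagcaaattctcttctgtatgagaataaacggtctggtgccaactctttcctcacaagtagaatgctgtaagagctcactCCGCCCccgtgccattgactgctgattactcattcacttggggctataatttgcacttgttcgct
Fdx1 (chr9:51963603-51963852): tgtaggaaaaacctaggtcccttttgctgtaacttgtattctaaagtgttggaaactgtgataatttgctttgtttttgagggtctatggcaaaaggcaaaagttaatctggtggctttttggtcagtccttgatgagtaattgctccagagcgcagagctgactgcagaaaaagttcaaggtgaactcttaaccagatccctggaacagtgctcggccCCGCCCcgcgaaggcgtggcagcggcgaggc
The NR5A motif, searched as CAAGGNCA, was found in 5.54% of 32536 RefSeq windows of the same 250 bases. The part of a cAMP response element, searched as TGACG, was found in 17.9% of them, and the motif of GATA factors, searched as AGATA, in 26.5%. The C/EBP motif, searched as TTGCNNAA, was found in 9.57%, and the Sp1 motif, searched as GGGCGG, in 33.0%. Hsd3b1 held 1 match, to the GATA letters in reverse, with its first base at position -133 from the start. Akr1c18 and Fdx1 each held 1 reverse match to the Sp1 letters, at positions -73 and -31. Positions count from the RefSeq start, which for Akr1c18 lies beyond the end of the printed stretch. None of the windows found for 6 of the 8 genes held CAAGGNCA. Hsd3b1 had the lowest GC content among them, at 36.4% with 1 CpG, and Por had the highest, at 65.6% with 21 CpG, against medians of 52.4% and 6 over all windows. The Por window (chr5:135688895-135689144) lies inside the gene's own limits and not upstream of them. A match is a string of letters and no measured binding.

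Mean RNA levels of all 8 genes were lower in CPC, with the smallest fold change in Por and the largest in Akr1c18. Of the 8 genes, 5 fell in CPC and 0 rose (0 also at an unadjusted p under 0.05 and under DESeq2 and limma-voom), where 19.7% of all tested genes were called lower and 19.6% higher. With the replicate block, 8 of 8 fell, against a background of 27.9% lower and 26.5% higher. The 3 CPC libraries lay below the 3 control libraries without overlap for 5 of 8 genes, against 26.8% of all tested genes. At equal library number, CPC was below control in all 3 pairs for 8 of 8 genes, against 37.6% of all tested genes. The median log2 change of the 8 was -1.30, and that of all tested genes was -0.0032. Together the 8 genes took 0.197%, 0.199% and 0.356% of counts in CPC 1 to 3, against 0.920%, 0.804% and 1.27% in control 1 to 3. Library 3 was the highest of its group for 8 of 8 genes in both groups, a pattern found in 23.6% of tested genes.

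**Figure D1:**
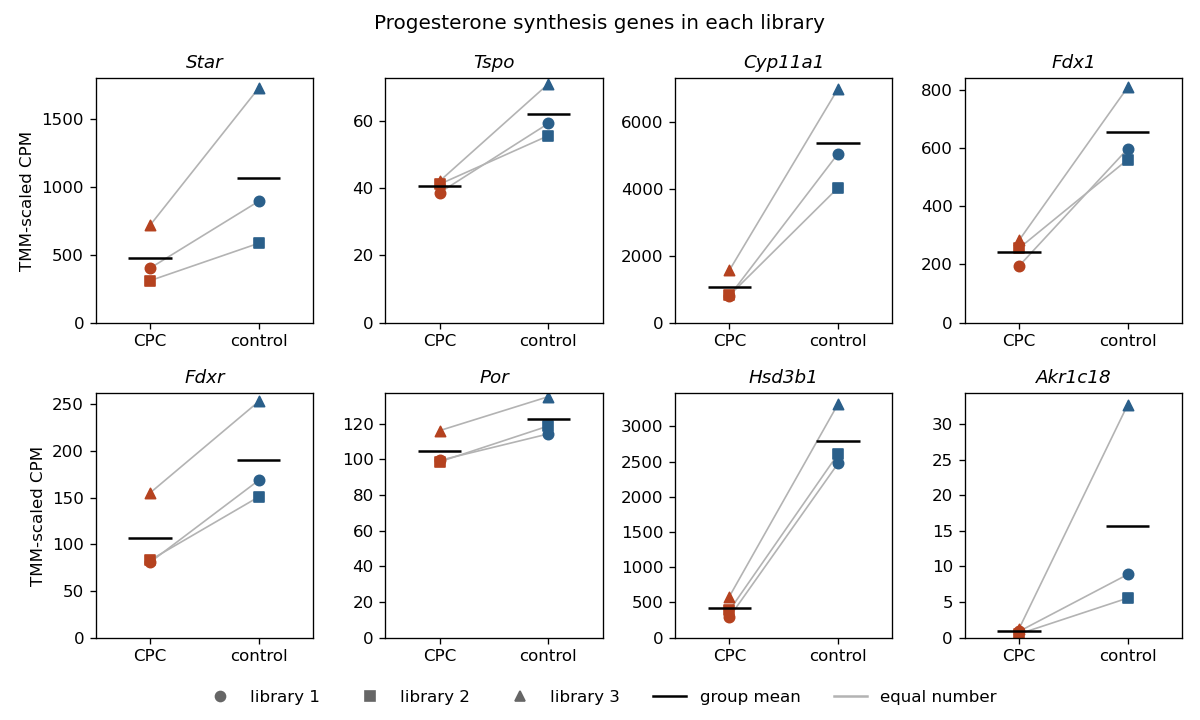
TMM-scaled CPM (linear axis from 0) of each of the 8 genes in the 3 CPC and 3 control libraries. Symbols mark the library number, grey lines join libraries of equal number and black bars are group means. Each grey line is lower at its CPC end, and library 3 is the highest of each group.

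Cholesterol entry was represented by Star, the carrier protein that limits the rate of acute steroid synthesis, and Tspo, an outer mitochondrial membrane protein that binds cholesterol and whose need in steroid synthesis is debated. Star (ENSMUSG00000031574, chr8:25806555-25815982, plus strand) had 400, 308 and 716 CPM in CPC 1 to 3, against 893, 584 and 1726 CPM in control 1 to 3. The groups overlapped, since CPC 3 lay above control 2, while every CPC library lay below its control of equal number. The log2 change was -1.17 ± 0.49 (SE, n = 3 each), which did not pass (adjusted p = 0.107), and with the replicate block it was -1.12 ± 0.09, which passed (adjusted p = 2.99e-05). Tspo (ENSMUSG00000041736, chr15:83563592-83574203, plus strand) had 38.7, 41.2 and 42.2 CPM in CPC, against 59.4, 55.7 and 71.1 CPM in control. The Tspo groups did not overlap, and the gene fell by 0.61 on the log2 scale (SE 0.11, adjusted p = 0.00462). Its exons overlap those of Mcat on the opposite strand, which had 390, 332 and 401 counts in CPC and 286, 424 and 417 in control, and since the strand of counting is not given, reads of the shared stretch cannot be told apart. Without replicate 1 of both groups the adjusted p of Tspo was 0.0586.

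Side-chain cleavage, the first enzymatic step, was represented by the gene with the most counts of the 8. Cyp11a1 (ENSMUSG00000032323, chr9:58006411-58027023, plus strand), the P450 that makes pregnenolone, had 794, 810 and 1563 CPM in CPC 1 to 3, against 5058, 4036 and 7002 CPM in control 1 to 3. The highest CPC library was far below the lowest control library, and the level was 5.08-fold lower (log2 change -2.35 ± 0.34, adjusted p = 0.00263). A lincRNA gene, Gm17322, overlaps its exons on the same strand and had 36, 48 and 44 counts in CPC against 125, 155 and 158 in control, small beside the 16145 to 148918 counts of Cyp11a1.

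The electron carriers of this enzyme moved by unequal amounts. Fdx1 (ENSMUSG00000032051, chr9:51943306-51963556, minus strand), the ferredoxin that hands electrons to CYP11A1, had 195, 256 and 283 CPM in CPC, against 598, 562 and 811 CPM in control. It fell 2.69-fold without overlap (log2 change -1.43 ± 0.19, adjusted p = 0.00187). Fdxr (ENSMUSG00000018861, chr11:115268024-115277050, minus strand), the reductase that loads FDX1 from NADPH and a known p53 target, had 80.7, 83.0 and 155 CPM in CPC, against 169, 151 and 253 CPM in control. CPC 3 lay just above control 2, so the groups overlapped. The log2 change of Fdxr was -0.85 ± 0.32 (adjusted p = 0.085), and with the block -0.88 ± 0.08 (adjusted p = 4.44e-05). DESeq2 and limma-voom called it without a block (adjusted p = 0.009 and 0.0489), as did edgeR without CPC 3 (adjusted p = 0.0156).

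Por (ENSMUSG00000005514, chr5:135670033-135735326, plus strand) encodes the reductase that feeds P450 enzymes of the endoplasmic reticulum, such as CYP17A1 and CYP19A1, and not CYP11A1. It had 99.5, 98.7 and 116 CPM in CPC, against 114, 119 and 135 CPM in control, the smallest fold change of the 8. CPC 3 lay between control 1 and control 2. The log2 change was -0.23 ± 0.10 (adjusted p = 0.0989) and with the block -0.23 ± 0.06 (adjusted p = 0.0113).

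Hsd3b1 (ENSMUSG00000027871, chr3:98852194-98859794, minus strand), the 3β-hydroxysteroid dehydrogenase that yields progesterone, had 290, 384 and 582 CPM in CPC, against 2473, 2607 and 3317 CPM in control. It fell 6.69-fold with no overlap (log2 change -2.74 ± 0.28, adjusted p = 7.94e-04). Of the 1806 stretches of 50 bases in its longest coding transcript, 4.98% also occur in other genes, among them Hsd3b2, Hsd3b3, Hsd3b5 and Hsd3b6. None of those 4 isoforms passed the low-count filter.

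Akr1c18 (ENSMUSG00000021214, chr13:4132615-4150654, minus strand), which removes progesterone, was the rarest of the 8. It had 20, 10 and 26 counts in CPC 1 to 3 and 166, 127 and 695 counts in control 1 to 3. These are 0.857, 0.502 and 1.21 CPM in CPC, against 8.86, 5.54 and 32.7 CPM in control. Control 3 stood well above the other control libraries, and no CPC library reached any of them. It fell 18.1-fold (log2 change -4.18 ± 0.82, adjusted p = 0.0103), the largest fold and the largest error of the 8. Without control 3 it was 8.32-fold lower (log2 change -3.06). The call was lost without the low-count filter (adjusted p = 0.0545) and without replicate 1 of both groups (adjusted p = 0.0757), while the block gave -4.04 ± 0.27 (adjusted p = 1.55e-05).

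**Figure D2:**
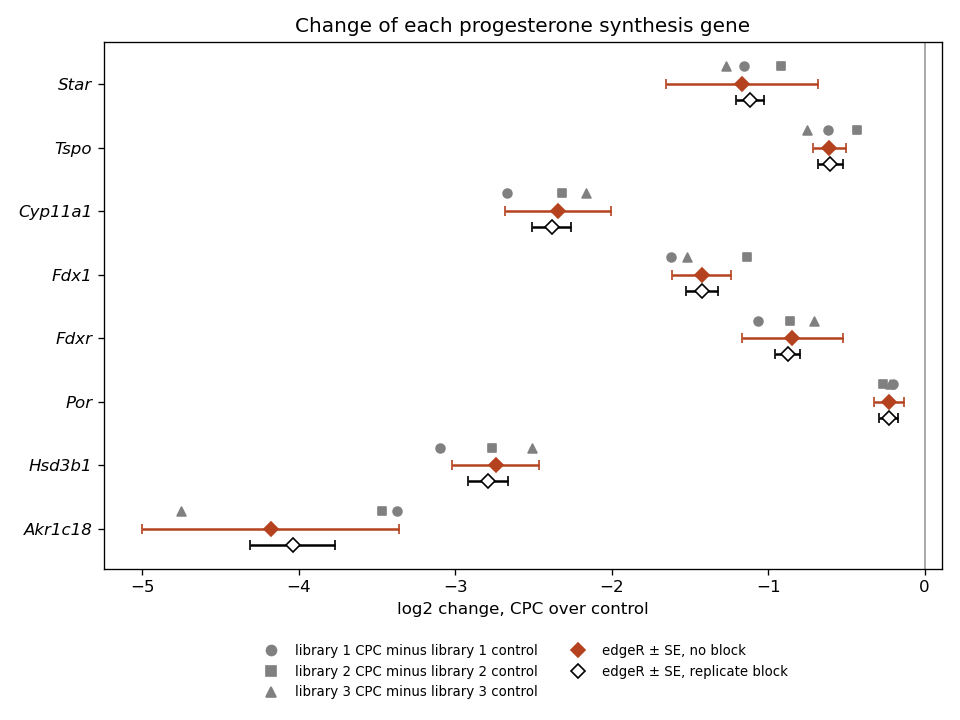
Log2 change, CPC over control, of each of the 8 genes. Grey symbols are the differences between libraries of equal number, filled diamonds the edgeR estimate and open diamonds that with the replicate block, both with SE. Each point lies below 0, from -0.23 for Por to -4.18 for Akr1c18 without the block, and the blocked SEs are the shorter ones.

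Per kilobase of the length given in the files, Cyp11a1 was the most abundant RNA of the 8 in both groups, at 1473 to 2901 CPM per kb in CPC and 7489 to 12991 CPM per kb in control. In CPC the order was then Fdx1 (222 to 323), Hsd3b1 (156 to 314), Star (76.2 to 177), Por (107 to 127), Fdxr (41.4 to 79.6), Tspo (46.3 to 50.4) and Akr1c18 (0.418 to 1.01 CPM per kb). In control it was Hsd3b1 (1333 to 1788), Fdx1 (642 to 926), Star (144 to 427), Por (125 to 147), Fdxr (77.5 to 130), Tspo (66.5 to 85.0) and Akr1c18 (4.62 to 27.2 CPM per kb). Among neighbours in the order, Fdx1 and Hsd3b1, Hsd3b1 and Star, Star and Por, and Fdxr and Tspo overlapped in CPC, and Star and Por, Por and Fdxr, and Fdxr and Tspo overlapped in control. The files give the length of 1 annotated transcript, which for Cyp11a1 is 539 bases where the longest coding transcript has 2120, for Fdx1 875 and 2759, and for Por 918 and 2636. By the longest coding transcript Cyp11a1 stayed first in both groups, followed by Hsd3b1, Star and Fdx1, and Por came just above Akr1c18.

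Ratios of 2 genes within a library do not depend on library scaling. Over 8 such ratios, the smallest p an exact two-sided permutation test of 3 against 3 can give is 0.1 and none can pass 0.05, so the values are given with their spread. The log2 ratio of Cyp11a1 to Fdxr was 3.30, 3.29 and 3.33 in CPC 1 to 3, against 4.91, 4.74 and 4.79 in control 1 to 3, a difference of -1.51 (exact p = 0.1, adjusted p = 0.2). Its SD was 0.0245 in CPC and 0.0846 in control, so this ratio held nearly 1 value per group, both genes being highest together in library 3. The log2 ratio of Cyp11a1 to Fdx1 averaged 2.05 ± 0.40 in CPC and 3.01 ± 0.14 in control, and that of Cyp11a1 to Star 1.17 ± 0.21 in CPC and 2.44 ± 0.39 in control (SD, n = 3 each, exact p = 0.1 and adjusted p = 0.2 for both). The log2 ratio of Fdx1 to Fdxr averaged 1.25 ± 0.38 in CPC and 1.80 ± 0.11 in control with no overlap (exact p = 0.1, adjusted p = 0.2).

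The remaining ratios overlapped between groups. Hsd3b1 to Cyp11a1 averaged -1.32 ± 0.21 in CPC and -0.91 ± 0.25 in control on the log2 scale (exact p = 0.2, adjusted p = 0.229), and its differences between libraries of equal number were -0.42, -0.44 and -0.35. Star to Tspo averaged 3.45 ± 0.60 in CPC and 3.97 ± 0.61 in control (exact p = 0.4, adjusted p = 0.4), with differences of -0.54, -0.49 and -0.51 at equal number. Those pair differences were far tighter than the spread within a group. Akr1c18 to Hsd3b1 and Por to Fdxr differed by -1.07 and 0.65 (exact p = 0.2, adjusted p = 0.229 for both). With the exact sign-flip test of 3 pairs each of the 8 ratios gave 0.25, the smallest value that test can reach.

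**Figure D3:**
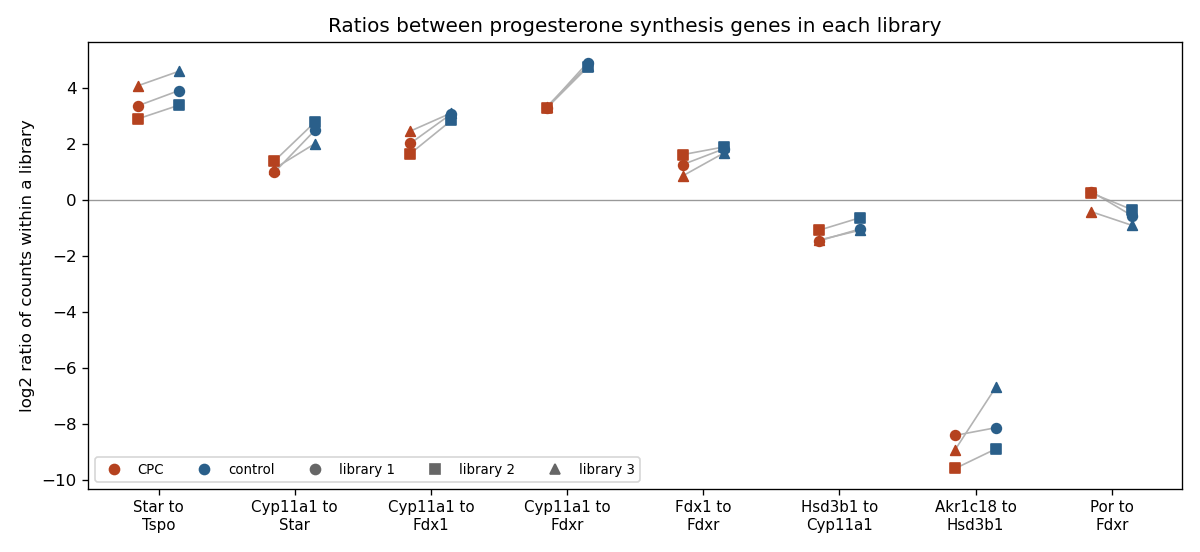
Log2 ratio of counts of 2 genes within a library, for 8 pairs of genes, with CPC left of control in each pair. Symbols mark library numbers and grey lines join equal numbers. Cyp11a1 to Fdxr shows 3 nearly equal values in each group, at 3.29 to 3.33 in CPC and 4.74 to 4.91 in control.

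Genes around the chain were read from 8 lists, of which 66 of 94 genes were tested. Of these, 28 fell and 10 rose, against backgrounds of 19.7% lower and 19.6% higher, and their median log2 change was -0.24. With the replicate block 33 fell and 14 rose, against backgrounds of 27.9% lower and 26.5% higher. Without replicate 1 of both groups 13 fell and 3 rose, where over all genes 1033 fell and 928 rose.

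Among 10 tested genes of mitochondrial cholesterol delivery, 2 fell and 4 rose (median log2 change 0.03), while 2 rose without control 1 or without the low-count filter and 0 rose without replicate 1 or replicate 2 of both groups. Stard4, a soluble sterol carrier related to STAR, fell to 14.4 ± 3.1 CPM in CPC, against 56.8 ± 5.8 CPM in control (SD, n = 3 each, log2 change -1.98, adjusted p = 3.92e-04). Dbi, the acyl-CoA binding protein that also binds TSPO, fell to 35.0 ± 0.3 CPM in CPC, against 83.7 ± 9.4 CPM in control (log2 change -1.26, adjusted p = 2.69e-04). Stard5, another soluble START-domain carrier, rose to 97.3 ± 5.9 CPM in CPC, against 47.1 ± 18.5 CPM in control (adjusted p = 0.0199). It was named after its values were seen, and its call was lost in 8 of 21 alternatives, among them the fit without the low-count filter (adjusted p = 0.0858), 4 of 6 fits without 1 library (0.0538 to 0.0574) and the block without replicate 2 of both groups (0.216). The other rises were Lonp1, the mitochondrial protease that degrades STAR (log2 change 0.88, adjusted p = 0.0158, without control 1 0.0595), Atad3a, a mitochondrial membrane ATPase (0.46, adjusted p = 0.0114), and Acbd3, a Golgi protein that binds TSPO (0.35, adjusted p = 0.011). Vdac1, the outer membrane channel, had 253 ± 4 CPM in CPC and 262 ± 22 CPM in control (adjusted p = 0.664).

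Of 12 tested genes of cholesterol supply, 4 fell and 2 rose (median log2 change -0.10). Among those that fell were the cholesterol exporters Abca1 (log2 change -1.26, adjusted p = 0.002) and Abcg1 (-1.59, adjusted p = 6.9e-04) and the lysosomal carrier Npc2 (-0.32, adjusted p = 0.0383). The call of Npc2 was lost in 9 of 21 alternatives, 5 of them fits without 1 library (adjusted p = 0.0545 to 0.115). Npc1, which moves cholesterol out of lysosomes, rose to 485 ± 149 CPM in CPC, against 125 ± 26 CPM in control (log2 change 1.96, adjusted p = 0.00213), and Vldlr rose by 0.90 (adjusted p = 0.00962). Scarb1, the HDL receptor, had 984 ± 176 CPM in CPC and 1341 ± 145 CPM in control (adjusted p = 0.0533, with the block 0.00301). Lrp1, an endocytic receptor, had 601 CPM in CPC and 501 CPM in control (adjusted p = 0.0559, with the block 0.0189), and Soat1, which esterifies cholesterol for storage, had 709 ± 66 CPM in CPC and 703 ± 62 CPM in control (adjusted p = 0.94).

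Among 8 tested genes of electron supply, 2 fell and 2 rose (median log2 change -0.0035). Cyb5r1, a cytochrome b5 reductase, rose to 237 ± 16 CPM in CPC, against 52.5 ± 16.3 CPM in control (log2 change 2.18, adjusted p = 8.06e-04), while its relative Cyb5r3 fell to 123 ± 7 CPM in CPC, against 257 ± 14 CPM in control (log2 change -1.07, adjusted p = 2.43e-04). Cyb5a, a cytochrome b5, fell (log2 change -0.50, adjusted p = 0.0266) and Idh2, a mitochondrial source of NADPH, rose (0.43, adjusted p = 0.0255). Each of these calls was lost in 4 of 6 fits without 1 library, with adjusted p = 0.059 to 0.0845 for Cyb5a (without control 1, control 2, CPC 1 or CPC 3) and 0.0604 to 0.0887 for Idh2 (without control 1, control 3, CPC 2 or CPC 3). Cyb5b had 263 ± 28 CPM in CPC and 334 ± 42 CPM in control (adjusted p = 0.0533, with the block 0.00269).

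Downstream of Hsd3b1, 3 of 5 tested genes of the AKR1C family and progestin breakdown fell and 0 rose (0 also at an unadjusted p under 0.05 and under each alternative, median log2 change -1.51). Akr1cl, a member of the AKR1C family, had 440.5, 777 and 568 CPM in CPC, against 1608, 1548 and 1940 CPM in control (log2 change -1.51, adjusted p = 0.00217). It shares 7 of the 1151 stretches of 50 bases of Akr1c18. Akr1c14, a 3α-hydroxysteroid dehydrogenase, had 88.3, 225 and 84.2 CPM in CPC, against 336, 672 and 323 CPM in control, with library 2 high in both groups (log2 change -1.74, adjusted p = 0.0372). Its call was lost without the low-count filter (adjusted p = 0.139) and in 5 of 6 fits without 1 library (0.0619 to 0.107), CPC 2 being the exception. Srd5a1, a 5α-reductase, fell at low level, 0.912 CPM in CPC against 2.68 CPM in control (adjusted p = 0.00708), and Akr1c13 had 0.251 CPM in CPC and 0.725 CPM in control (adjusted p = 0.127, with the block 0.0145).

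Of the other 3β-hydroxysteroid dehydrogenases, 1 of 7 was tested. It was Nsdhl, an enzyme of cholesterol synthesis and not of progesterone, which fell to 20.5 ± 2.9 CPM in CPC, against 99.9 ± 23.4 CPM in control (log2 change -2.28, adjusted p = 4.41e-04). Of 6 tested androgen, oestrogen and corticoid enzymes, 4 fell and 0 rose (0 also at an unadjusted p under 0.05 and under each alternative, median log2 change -0.68). These were Hsd17b12 (log2 change -0.86, adjusted p = 5.51e-04), Hsd17b4 (-0.50, adjusted p = 0.00158), Hsd17b7 (-1.89, adjusted p = 0.00562) and Hsd11b2 (-3.42, adjusted p = 0.0134). The first 3 also serve fatty acid or cholesterol metabolism. Hsd11b2 had 0.643, 0.702 and 0.652 CPM in CPC, against 2.83, 15.3 and 3.39 CPM in control, so control 2 stood far above the other control libraries. Without control 2 its log2 change was -2.22, and its call was lost without CPC 1 (adjusted p = 0.0546), without CPC 3 (0.0542) and without the low-count filter (0.0575). Hsd17b1, the granulosa enzyme that makes oestradiol from oestrone, had 107 ± 18 CPM in CPC and 137 ± 19 CPM in control (adjusted p = 0.0968).

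Among 6 tested progesterone receptors, 3 fell and 1 rose (median log2 change -0.10), while 1 fell without CPC 1. The membrane receptors Paqr8 (log2 change -1.18, adjusted p = 0.00142) and Paqr7 (-0.45, adjusted p = 0.0361) and the membrane component Pgrmc2 (-0.26, adjusted p = 0.0168) fell. The call of Paqr7 was lost in 4 of 6 fits without 1 library (adjusted p = 0.0789 to 0.127, all but control 1 and CPC 3). That of Pgrmc2 was lost in 7 of 21 alternatives, among them without control 1 (0.0601), without CPC 1 (0.0607) and without replicate 1 of both groups (0.176). Paqr9 rose at low level, 4.23 CPM in CPC against 1.23 CPM in control (adjusted p = 0.0137, without replicate 2 of both groups 0.101). Pgrmc1 had 424 ± 70 CPM in CPC and 404 ± 58 CPM in control (adjusted p = 0.741). Pgr, the nuclear receptor, had 3.86, 1.81 and 0.513 CPM in CPC, against 2.83, 0.567 and 0.188 CPM in control. It was not called (log2 change 0.82, adjusted p = 0.569), while the block called it higher (0.96, adjusted p = 0.0321).

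Of 18 tested regulators of steroidogenic genes, 9 fell and 1 rose (median log2 change -0.38), while 1 fell and 0 rose without replicate 1 of both groups. Prlr, the prolactin receptor that sustains the rodent corpus luteum, had 20.3, 35.2 and 25.9 CPM in CPC, against 129, 153 and 177 CPM in control (log2 change -2.50, adjusted p = 6.18e-04). The nuclear receptor Nr5a2, needed for luteal steroid synthesis in mice, fell by 0.66 (adjusted p = 0.0106). The cAMP pathway genes Prkar1a (log2 change -0.54, adjusted p = 0.00194), Prkaca (-0.56, adjusted p = 0.0132) and Crem (-0.70, adjusted p = 0.00273) fell, as did Runx2 (-0.59, adjusted p = 0.00889). Sp1 rose (log2 change 0.46, adjusted p = 0.00678). Nr5a1, which encodes the factor SF-1, had 124 ± 7 CPM in CPC and 144 ± 9 CPM in control (adjusted p = 0.0557, with the block 0.0135). Gata4, named in the labels' transfection text, had 242, 259 and 269 CPM in CPC and 293, 317 and 261 CPM in control (adjusted p = 0.171), and Prkar2b averaged 271 CPM in both groups (adjusted p = 0.994).

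**Figure D4:**
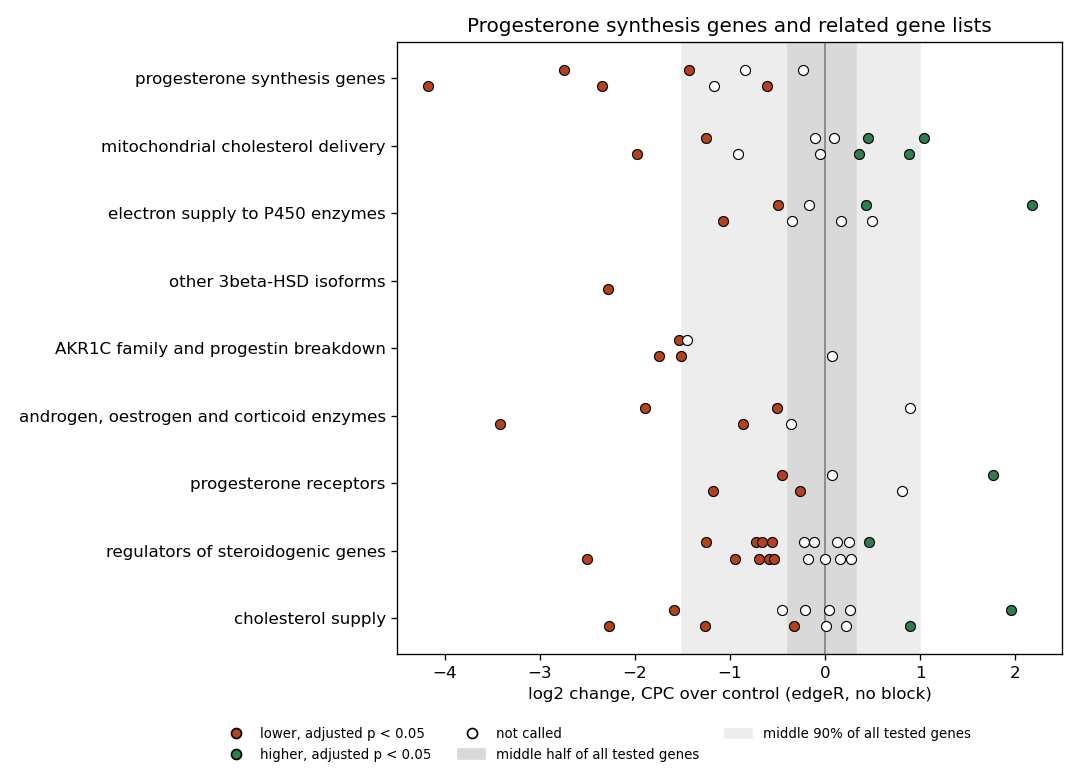
Log2 change, CPC over control, of the 8 genes (labelled progesterone synthesis genes, with Por and Akr1c18 among them) and of the tested genes of 8 related lists, 1 point per gene, without block. Orange is lower and green higher at adjusted p under 0.05, and grey bands hold the middle parts of all tested genes. The 8 genes all lie below 0. Calls lie on both sides in mitochondrial cholesterol delivery, electron supply, cholesterol supply, progesterone receptors and regulators of steroidogenic genes.

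The cell type label was read against marker lists. Granulosa markers summed to 3414 to 4391 CPM in CPC and 6552 to 6876 CPM in control, mostly Inhba and Inha. Of 11 tested granulosa markers 8 were lower, against 19.7% of all tested genes. Amh stayed at or below 0.14 CPM and Cyp19a1, the aromatase, at 0.423 to 1.35 CPM. Luteal markers, a list that holds Cyp11a1, Star and Akr1c18, summed to 1777 to 2756 CPM in CPC and 7400 to 11369 CPM in control, and Lhcgr, the LH receptor, was below the filter. Theca and stroma markers summed to 594 to 1592 CPM in CPC and 906 to 1369 CPM in control, mostly Acta2 and Tagln. Dcn of this list had 80.7 CPM in CPC 1 and 65.3 CPM in control 1, against 8.86 to 10.99 CPM in the other libraries. Col1a1 had 132 CPM in CPC 1 and 104 CPM in control 1, against 17.2 to 41.9 CPM in the other libraries. Cyp17a1 had 0 counts in all 6 libraries. Adrenal cortex markers other than Mrap were at or below 0.235 CPM. Of 9 tested leukocyte markers 8 fell, against 19.7% of all tested genes. In CPC, Itgam had 3, 2 and 3 counts, C1qa 1, 0 and 0, Adgre1 10, 4 and 13 and Ptprc 20, 7 and 11. These markers passed the low-count filter through their higher control counts, so the 8 of 9 is no independent support. The leukocyte list summed to 14.5 to 37.7 CPM in CPC and 202 to 336 CPM in control. Library 3 had the highest sum of both groups, as for 23.6% of tested genes taken singly. Not every marker followed library 3, since Cd14 was highest in library 1 of both groups and Csf1r, among the control libraries, in control 2. Lyz2 made up most of the sum in the 3 control libraries and in CPC 3, while Cd68 was the highest of the list in CPC 1 and CPC 2. Oocyte markers summed to 0.752 to 1.49 CPM in CPC and 1.55 to 5.28 CPM in control, endothelial markers to 4.46 to 6.48 CPM in CPC and 5.98 to 6.94 CPM in control, and surface epithelium markers to 96.7 to 421 CPM in CPC and 160 to 395 CPM in control with library 1 highest in both groups. The part of these lists in the changes of the 8 genes was not tested.

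The genes with profiles closest to those of Star, Cyp11a1, Hsd3b1 and Akr1c18 were sought among 10335 genes by the root mean square difference of mean-centred log2 CPM over the 6 libraries. For Cyp11a1 these were Cybb, a phagocyte NADPH oxidase subunit (0.14), Mgarp, a mitochondrial protein (0.18), and Idh1, a cytosolic source of NADPH (0.18). Cybb was rare, at 0.90, 0.75 and 1.86 CPM in CPC, against 7.15, 7.37 and 12.1 CPM in control. Its edgeR log2 change was -2.92, against -2.35 for Cyp11a1. Idh1 had 361, 352 and 500 CPM in CPC, against 1958, 1388 and 2847 CPM in control, with library 3 highest and library 2 lowest in both groups. For Hsd3b1 they were Scd2, a fatty acid desaturase (0.24), Cybb (0.24) and Slc25a45 (0.24), and Scd2 had 548, 612 and 794 CPM in CPC, against 3041, 3140 and 4059 CPM in control. For Star they were Rab33a (0.13), Nt5e, the ecto-enzyme that makes adenosine (0.15), and Mmel1 (0.16), and Nt5e had 138, 101 and 196 CPM in CPC, against 291, 217 and 499 CPM in control. For Akr1c18 they included Apln, the peptide apelin (0.25), and Tlcd4 (0.34), and Apln had 0.257, 0.10 and 0.699 CPM in CPC, against 8.43, 3.79 and 21.1 CPM in control. All 6 libraries enter this likeness, so it contains the group difference and the library numbers alike. The pseudocount added to CPM shrinks log2 differences of rare genes. In CPC these include Cybb, Apln, Akr1c18 itself and Slc25a45 (1.11, 1.86 and 1.63 CPM). The ranks of Cybb, Slc25a45 and Apln may therefore rest on the pseudocount, and ranks without it were not tested.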

How the data were processed

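RNA sequencing of 6 libraries was deposited as 1 count per gene for 55487 genes, and, per the file headers, the symbol, the GRCm38.p6 location and an exon length. The deposited counts are whole numbers and were used as the authors gave them. Bowtie2, RSEM and hg19 are listed, without versions, per the submitters' processing notes. A human build does not match mouse files, so the aligner and counter of these files are uncertain, and the sources used here give neither the strand setting nor how shared reads were treated. Per the labels, a SMARTER mRNA-seq kit was used on column-purified RNA. Titles and treatment labels gave the groups, and titles the replicate numbers.

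Genes were filtered with filterByExpr in edgeR 4.0.16 (R 4.3.3), leaving 15000 of 26620 genes with any count, and the groups were compared by TMM and robust quasi-likelihood fits without covariates. Each SE is the size of the log2 change over the root of its F value. CPM are TMM-scaled and relative to the counts in tested genes. Depth was 19079345 to 23157541 counts per library, and counts cover counting error only. Pairs of libraries in a group differed by 18.8 to 50.2 chi-square units per degree of freedom, so each was kept as 1 sample. The edgeR script was tested on simulated data.

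The main fit did not pair libraries of equal number, although their deviations from group means correlated at 0.662, 0.593 and 0.633 (correlations over genes). Those of unequal number correlated at -0.275 to -0.368. Subtracting group means forces such values below 0 on average once equal numbers correlate above 0, so they are no further evidence of pairing. The likeness of equal numbers was seen in the data alone, with nothing in the labels on what they have in common. A block on the number was an alternative, and calls without it ignore this likeness.

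The 8 genes, the lists and the tests were chosen with earlier results of these data known, so no list count is independent support. Named genes were the 8, up to 4 tested genes per list with the smallest adjusted p, list genes above 100 CPM in either group, and 3 like genes (mean of at least 5 CPM) for each of 4 members. Stard5, Pgr, Mrap, Ptgfr, Sfrp4, Lyz2, Cd68, Itgam, C1qa, Adgre1, Ptprc, Acta2, Tagln, Dcn, Col1a1 and the markers given as absent were named after their values were seen. Some genes that this rule picks are not reported here. Log2 CPM for likeness used a pseudocount of 0.5. Other alternatives were DESeq2 1.42.0, limma-voom (limma 3.58.1), RLE factors, library size alone, no filter, 5 CPM in 3 libraries and fits without each library in turn. Omitting a number from both groups, the block with other tools or fewer numbers, and the longest coding transcript length (GENCODE M21) were added after seeing the data. In genes with several transcripts the deposited exon length equalled 1 annotated transcript in 99.2% of 20970.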

Additional observations from a re-analysis of the deposited data

How the results depend on the processing

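No alternative turned the direction of any of the 8 genes. The count of 5 lower became 8 with the replicate block, in edgeR, DESeq2 and limma-voom, and with the block it was 7 when replicate 1 of both groups was left out and 8 when replicate 2 or 3 was. Without the block it was 3 when replicate 1 of both groups was left out and 4 to 7 in the others, 7 of them without CPC 3 or without replicate 3 of both groups. Over all genes, leaving out replicate 1 of both groups gave 928 higher and 1033 lower, replicate 2 of both groups 1736 higher and 1650 lower, and single libraries 1932 (control 1) to 2613 higher. The lists gave 3 higher and 13 lower without replicate 1 of both groups and 5 higher without replicate 2 of both groups. These fits have fewer samples. By longest coding transcript, Cyp11a1 had 498 CPM per kb in CPC and 2531 in control, Fdx1 88.6 in CPC and 238 in control, and Por 39.7 in CPC and 46.6 in control, set by the longer lengths. Summing identifiers of a symbol changed nothing, as each has 1.

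Some list genes near 0 changed sign, and the cause was not tested. Log2 changes of Soat1 were -0.0064 with the 5 CPM filter, -0.0615 to 0.0821 without 1 library, -0.0851 without replicate 3 of both groups and -0.0801 with the block as well. Vdac1 had 0.0214 by library size, -0.0997 to 0.0205 without 1 library, 0.0117 without replicate 3 of both groups and 0.0118 with the block as well. Pgrmc1 had -0.0456 to 0.203 without 1 library. Prkar2b had 0.0653 by library size, 0.0056 without filter, -0.273 to 0.268 without 1 library, 0.0998 and 0.079 without replicate 1 or 2 of both groups, and 0.0885 with the block without replicate 1. Among the 8 genes, Akr1c18 had the fewest counts, 10 to 26 per CPC library, and of the list genes Akr1c13 had 11, 1 and 5 and Hsd11b2 14 to 15 per CPC library.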

Other observations

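Values of 4 marker genes outside the 8 were picked after they were seen, and edgeR called each lower in CPC. Mrap, the accessory protein of melanocortin receptors known from the adrenal cortex, had 48.2, 56.2 and 71.9 CPM in CPC, against 156, 156 and 174 CPM in control. Ptgfr, the prostaglandin F receptor that triggers luteal regression, had 2.27, 10.4 and 11 CPM in CPC, against 39.0, 39.5 and 160 CPM in control (adjusted p = 0.0311). The call of Ptgfr was lost in 9 of 21 alternatives, among them the fits without the low-count filter (adjusted p = 0.104), without control 3 (0.0601), without CPC 2 (0.0548), without CPC 3 (0.0642) and with the block without replicate 1 of both groups (0.225). Its log2 change was -3.34, and -2.32 without control 3. Sfrp4, a secreted Wnt modulator, had 560, 879 and 438 CPM in CPC, against 2584, 2579 and 2266 CPM in control. Lyz2, the lysozyme of phagocytes, had 6.90, 5.42 and 20.7 CPM in CPC, against 164, 207 and 283 CPM in control.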
